A study of Mus musculus with 30 samples.

Results

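Complement is followed here in the mouse ventral prostate (VP) through 9 genes for its components, receptors and one surface regulator. They were C3, C4b, C2, Cfb, C1ra, C1s1, C3ar1, C5ar1 and Cd55, taken by symbol, and all 9 were found among the 39179 gene identifiers of the count tables. A further 47 genes of the cascade were listed as their pathway and are given by counts, with only a few named.

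Complement is a chain of plasma and tissue proteins that marks and lyses targets and calls in leukocytes. In the classical branch C1q binds its target and carries the proteases C1r and C1s, of which C1s cuts C4 and C2. The products form an enzyme that cuts C3, while in the alternative branch factor B pairs with C3b to form a second C3-cutting enzyme. The small fragments C3a and C5a act through the receptors encoded by C3ar1 and C5ar1 on myeloid cells, and CD55, on the cell surface, takes the C3-cutting enzymes apart. The liver supplies most complement in plasma, but fibroblasts, epithelia and macrophages also make components locally.

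The mice were male C57BL/6 fed, from weaning, diets of ordinary fat content that differed in the fat used, and the study asked how dietary fatty acids affect the VP. LO mice received linseed oil, SO mice soybean oil and PF mice pork fat (lard), each for 12 or 32 weeks, with 5 mice in each of the 6 groups and no untreated group, so that SO and LO serve as the comparison for PF. The RNA was bulk RNA of whole VP, in which more cells of a type and more RNA per cell cannot be told apart. Each library is labelled as a sample of its own, but no label says whether mice shared a cage or litter, so p-values measure the spread between these samples.

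Counts on genes totalled 27590631 to 41301707 per mouse, the 10 largest genes took 19.6% to 35.2% of them, and levels are given as CPM, counts scaled to a common library total with TMM factors. Luminal prostate genes were counted in every library, since the 10 luminal markers, mostly Sbp and Spink1, summed to 108063 to 336745 CPM over the 30 mice. The 4 hepatocyte markers summed to 0.989 to 8.93 CPM. The 5 markers of seminal vesicle and anterior prostate (Svs2, Svs4, Svs5, Svs6 and Pate4) summed to at most 0.306 CPM in any mouse. No list of markers of the dorsal or lateral lobes was read, and whether tissue of other prostate lobes was present was not tested further. In 6 libraries the C1ra neighbour C1rb exceeded 1 CPM, together with C1s2 and Tgm4. They were LO mouse 4, SO mouse 3 and PF mouse 5 at 12 weeks and LO mouse 3, PF mouse 2 and PF mouse 3 at 32 weeks. Counts of members that passed a test are therefore given with and without these 6 mice, a choice made after their values were seen.

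The members spanned a wide range of levels in the VP. Per kilobase of exon, and as medians over 30 mice, C1s1 and C3 stood highest at 26.4 and 26.3 CPM per kb. They were followed by C1ra at 8.97, C4b at 6.53 and Cd55 at 5.06 CPM per kb. The receptors were lower, C3ar1 at 1.11 and C5ar1 at 0.897 CPM per kb, C2 stood at 0.772 CPM per kb, and Cfb lay far below the rest at 0.0611 CPM per kb. On the same scale the recognition subunits C1qb, C1qa and C1qc stood at 30.7, 23.7 and 11.8 CPM per kb, and the inhibitors Clu (clusterin) and Serping1 (C1 inhibitor) at 114 and 70.1 CPM per kb. Of the terminal components that build the membrane pore, C7 stood at 11.7 CPM per kb, while Hc, which encodes C5, had 0.0101 CPM per kb and C9 was at 0 in 24 of 30 mice. C3, C4b, C1ra and C1s1 were thus well counted in the VP, whereas Cfb and the mRNA of C5 were close to the limit of counting.

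**Figure D1:**
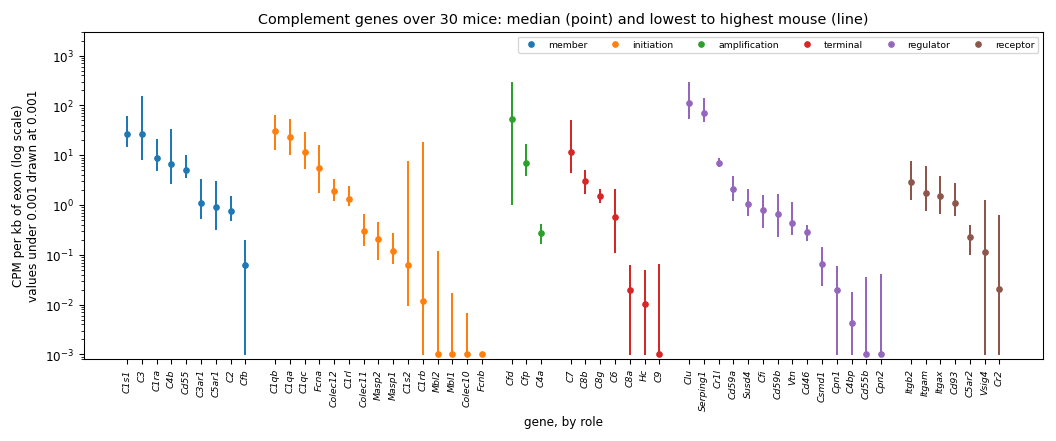
Level of the 9 members and 46 of the other complement genes as CPM per kb of exon on a log axis, with the median of 30 mice as a point and the lowest to highest mouse as a line, coloured by role. C1s1 and C3 sit at the top of the members with medians of 26.4 and 26.3 CPM per kb, and Cfb at the bottom with 0.0611 CPM per kb.

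On GRCm38, 4 members lie on chromosome 17, namely C3 (chr17:57203970-57228136, minus strand), C4b (chr17:34728380-34743882, minus strand), Cfb (chr17:34856374-34862518, minus strand) and C2 (chr17:34862604-34898265, minus strand). Another 3 lie on chromosome 6, C1ra (chr6:124512405-124523443, plus strand), C1s1 (chr6:124530345-124542359, minus strand) and C3ar1 (chr6:122847138-122856161, minus strand). C5ar1 (chr7:16246743-16259540, minus strand) and Cd55 (chr1:130439027-130462744, minus strand) lie apart. The exons of the readthrough gene Gm20547 cover 79.5% of the exon bases of Cfb and 42.8% of those of C2 on the same strand, and Gm20547 had 0 counts in every mouse. Read pairs that fall in 2 genes are commonly set aside in such counting, so the levels of Cfb and C2 are uncertain. Gm16567 overlaps 18.4% of C1s1, Zbtb12 4.2% of C2 and Gm16083 2.1% of Cd55, each on the opposite strand, and whether the counting used strand is not given in the sources used here. C4b has the near copy C4a, C1ra has C1rb, C1s1 has C1s2 and Cd55 has Cd55b, so reads shared by a pair may be missing from both.

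Upstream sequence is shown for 3 members with different parts in the cascade, because C3 is the point where its branches meet, C1s1 is a starting protease and C3ar1 is the receptor that changed most clearly with time. The 250 bases before each start site are from RefSeq on GRCm38.p6, 5′ to 3′ on the gene's own strand, with motif matches in capitals. C3 (chr17:57228137-57228386), C1s1 (chr6:124542360-124542609) and C3ar1 (chr6:122856158-122856407) are all on the minus strand.
C3: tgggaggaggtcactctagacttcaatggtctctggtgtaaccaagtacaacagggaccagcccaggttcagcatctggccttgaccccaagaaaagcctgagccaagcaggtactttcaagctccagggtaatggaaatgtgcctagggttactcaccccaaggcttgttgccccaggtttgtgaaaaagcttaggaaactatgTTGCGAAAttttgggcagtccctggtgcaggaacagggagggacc
C1s1: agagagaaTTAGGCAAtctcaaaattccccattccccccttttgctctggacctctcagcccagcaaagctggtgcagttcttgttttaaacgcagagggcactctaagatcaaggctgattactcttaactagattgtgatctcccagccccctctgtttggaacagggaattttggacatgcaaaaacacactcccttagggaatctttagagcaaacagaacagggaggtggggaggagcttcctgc
C3ar1: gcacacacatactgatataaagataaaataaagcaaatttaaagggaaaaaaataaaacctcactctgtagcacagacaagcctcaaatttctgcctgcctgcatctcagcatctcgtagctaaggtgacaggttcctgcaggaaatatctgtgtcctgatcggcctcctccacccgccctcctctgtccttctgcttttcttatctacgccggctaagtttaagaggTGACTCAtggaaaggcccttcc
The motifs searched on both strands were the NF-kB, GAS (TTCNNNGAA), C/EBP (TTGCNNAA) and AP-1 (TGANTCA) motifs. C3 held the C/EBP match TTGCGAAA from −45 to −38, C1s1 a C/EBP match on the opposite strand from −242 to −235, and C3ar1 the AP-1 match TGACTCA from −22 to −16, counted back from the start. Among 32851 mouse upstream regions of this length, 9.56% held the C/EBP motif, 6.75% the AP-1 motif, 7.25% the NF-kB motif and 7.02% GAS. The RefSeq table had an entry for 6 of the 9 members and none for C4b, C2 and Cfb, and C1s1 had 2 entries. The other C1s1 window (chr6:124542322-124542571, minus strand) held no match, and the windows of C1ra, C5ar1 and Cd55 held none of these letters. A match is a description of letters, and no binding was measured.

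C3, on which all branches converge, had the widest range of the members counted in quantity, from 44.0 to 772 CPM over the 30 mice. At 12 weeks it stood at 153, 44.00, 106, 103 and 132 CPM in LO mice 1 to 5, at 47.6, 74.7, 52.5, 88.6 and 128 CPM in SO mice and at 138, 279, 401, 90.7 and 82.8 CPM in PF mice. PF mice 2 and 3 lay above every other mouse of that age, while PF mice 4 and 5 lay among the SO and LO mice. At 32 weeks the values were 306, 282, 772, 59.4 and 329 CPM in LO, 64.6, 252, 444, 308 and 64.1 CPM in SO and 110.0, 257, 145, 147 and 205 CPM in PF mice. Here LO mouse 3 was the highest of all 30 mice, LO mouse 4 was near the lowest, and SO mice 1 and 5 lay far below the other 3 SO mice. Group means were therefore wide, 349.7 ± 259 CPM in LO, 227 ± 164 CPM in SO and 173 ± 58.2 CPM in PF mice at 32 weeks (mean ± SD, n = 5), and neighbours in that order did not differ beyond their spread. The PF-SO difference at 12 weeks was a log2 fold change of 1.35 (SE 0.438, edgeR adjusted p = 0.287). From 12 to 32 weeks the log2 fold change was 1.70 (SE 0.555, edgeR adjusted p = 0.0800) in LO mice, 1.53 (SE 0.553, edgeR adjusted p = 0.0968) in SO mice and −0.20 (SE 0.540, edgeR adjusted p = 0.933) in PF mice. None of these passed the threshold of an adjusted p under 0.05 in edgeR, although DESeq2 gave adjusted p = 0.0283 in LO and 0.0486 in SO mice. Over all alternatives the adjusted p ran from 0.0258 to 0.346 in LO and from 0.0381 to 0.294 in SO mice.

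C4b and C2 encode the pair that C1s cuts to make the classical C3-cutting enzyme, and they were measured at very different depths. At 12 weeks C4b stood at 40.2, 18.8, 31.5, 27.9 and 32.8 CPM in LO mice 1 to 5, 15.7, 22.3, 19.5, 20.02 and 34.6 CPM in SO and 45.8, 64.9, 55.9, 38.5 and 19.5 CPM in PF mice. PF mice 1 to 4 lay above all 5 SO mice, and PF mouse 5 lay among them. At 32 weeks C4b stood at 110.4, 71.4, 182, 19.6 and 90.2 CPM in LO, 22.5, 55.02, 138, 56.5 and 26.2 CPM in SO and 46.8, 68.9, 31.6, 35.8 and 55.8 CPM in PF mice. LO mouse 3 and SO mouse 3 were the highest and LO mouse 4 the lowest, so that the 3 diets overlapped. C4b rose from 12 to 32 weeks in LO mice, with a log2 fold change of 1.65 (SE 0.449, edgeR adjusted p = 0.0451). That call was lost in 9 of 10 fits that left out 1 LO mouse (edgeR adjusted p = 0.0506 to 0.183), the exception being mouse 4 at 32 weeks, and without the 6 mice with C1rb above 1 CPM (log2 fold change 1.26, edgeR adjusted p = 0.186). The call was also lost in a fit of only the 2 groups compared and with the replicate block (edgeR adjusted p = 0.0529). In SO mice the change was 1.41 (SE 0.448, edgeR adjusted p = 0.0556) and in PF mice 0.091 (SE 0.438, edgeR adjusted p = 0.966). PF against SO at 12 weeks gave 1.01 (SE 0.282, edgeR adjusted p = 0.212) in edgeR and an adjusted p = 0.0306 in DESeq2. Without PF mouse 5 the edgeR value was 1.20 with an adjusted p = 0.0272, and over all alternatives the adjusted p ran from 0.0272 to 0.542.

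C2 was counted 58 to 184 times per mouse. In LO mice it stood at 2.81, 2.08, 2.30, 2.81 and 2.16 CPM at 12 weeks and 3.14, 3.63, 5.63, 2.82 and 4.84 CPM at 32 weeks. The 2 ages touched but did not overlap, since LO mouse 1 at 12 weeks had 2.81 CPM and LO mouse 4 at 32 weeks 2.82 CPM. C2 rose in LO mice with a log2 fold change of 0.72 (SE 0.188, edgeR adjusted p = 0.0367). The call was lost in 5 of 10 fits that left out 1 LO mouse, namely mouse 2, 3 or 5 at 12 weeks and mouse 3 or 5 at 32 weeks (edgeR adjusted p = 0.0629 to 0.152), and without the 6 mice with C1rb above 1 CPM (0.64, edgeR adjusted p = 0.125). It was also lost in a fit of only the 2 groups compared. The values were 1.94, 2.31, 2.53, 2.82 and 2.94 CPM at 12 weeks and 2.50, 4.07, 4.46, 4.22 and 2.76 CPM at 32 weeks in SO mice, and 2.74, 3.94, 3.21, 3.20 and 2.57 and 3.30, 4.14, 3.42, 3.04 and 4.07 CPM in PF mice. In SO mice 3 of 5 mice at 32 weeks lay above all mice at 12 weeks, and the change was 0.52 (SE 0.188, edgeR adjusted p = 0.0962). In PF mice the ages overlapped, with a change of 0.20 (SE 0.187, edgeR adjusted p = 0.754).

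C1ra and C1s1, the proteases that start the classical branch, moved by smaller steps. C1ra stood at 27.99, 19.5, 19.5, 24.1 and 27.2 CPM in LO, 16.3, 21.5, 15.1, 22.8 and 24.97 CPM in SO and 28.1, 31.6, 34.7, 26.3 and 21.6 CPM in PF mice at 12 weeks. PF mice 1 to 4 lay above all SO mice and PF mouse 5 among them. At 32 weeks its values were 42.6, 37.9, 61.2, 18.1 and 40.1 CPM in LO, 20.8, 30.8, 42.2, 36.9 and 19.9 CPM in SO and 27.4, 33.5, 25.1, 22.9 and 35.9 CPM in PF mice. In LO mice all but mouse 4 lay above every LO mouse at 12 weeks, and the log2 fold change over time was 0.76 (SE 0.234, edgeR adjusted p = 0.0686). In SO and PF mice it was 0.58 (SE 0.234, edgeR adjusted p = 0.146) and 0.026 (SE 0.233, edgeR adjusted p = 0.982). PF against SO at 12 weeks gave 0.50 (SE 0.160, edgeR adjusted p = 0.271). C1s1 ran from 57.1 to 98.3 CPM in LO, 47.4 to 83.5 CPM in SO and 75.2 to 100.3 CPM in PF mice at 12 weeks to 75.2 to 186, 60.8 to 127 and 75.4 to 125 CPM at 32 weeks. Its groups overlapped in every comparison, and the changes over time were 0.66 (SE 0.213, edgeR adjusted p = 0.0772) in LO, 0.40 (SE 0.213, edgeR adjusted p = 0.303) in SO and 0.12 (SE 0.212, edgeR adjusted p = 0.889) in PF mice.

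**Figure D2:**
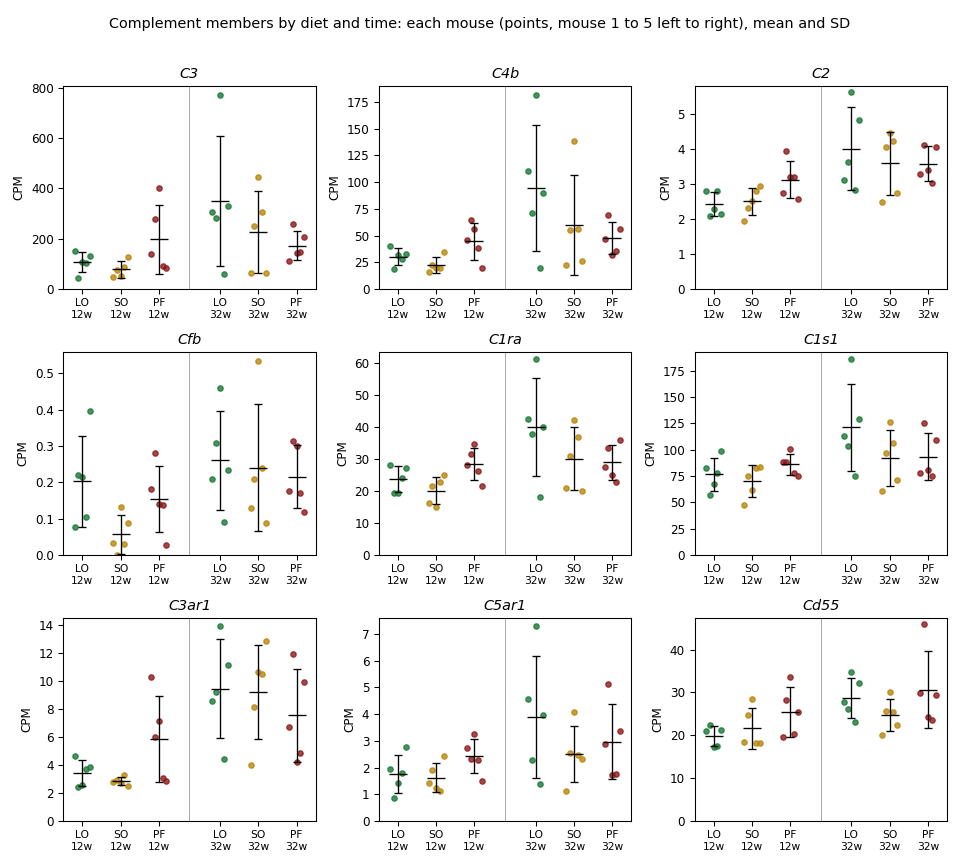
CPM of each member in every mouse, one panel per gene on a linear axis from 0, with LO in green, SO in gold and PF in red at 12 weeks (left) and 32 weeks (right), points for mice 1 to 5 and black marks for the mean and SD. LO mouse 3 and LO mouse 4 at 32 weeks are the highest and the lowest of their group in 9 of 9 members.

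C3ar1, the receptor for C3a, was the member with the clearest change. At 12 weeks it stood at 4.66, 2.40, 2.55, 3.69 and 3.86 CPM in LO mice 1 to 5, 2.82, 2.95, 2.70, 3.28 and 2.53 CPM in SO and 10.3, 5.99, 7.16, 3.06 and 2.89 CPM in PF mice. SO mice were close together, and PF mice 1 to 3 lay above all of them while PF mice 4 and 5 did not. At 32 weeks it stood at 8.60, 9.19, 13.96, 4.42 and 11.2 CPM in LO, 3.99, 8.12, 10.7, 10.5 and 12.8 CPM in SO and 6.69, 11.97, 4.24, 4.88 and 9.94 CPM in PF mice. Every SO mouse at 32 weeks lay above every SO mouse at 12 weeks, and in LO mice only mouse 4 at 32 weeks lay within the range at 12 weeks. C3ar1 rose in SO mice with a log2 fold change of 1.69 (SE 0.352, edgeR adjusted p = 0.00681) and in LO mice with 1.46 (SE 0.348, edgeR adjusted p = 0.0231). The SO call was kept under every alternative and with every mouse left out in turn, whereas the LO call was lost without LO mouse 2 or 3 at 12 weeks or LO mouse 3 or 5 at 32 weeks (edgeR adjusted p = 0.0554 to 0.0912) and without the 6 mice with C1rb above 1 CPM (0.0776). The LO call was also lost in a fit of only the 2 groups compared. In PF mice the change was 0.36 (SE 0.340, edgeR adjusted p = 0.751). PF against SO at 12 weeks gave 1.04 (SE 0.302, edgeR adjusted p = 0.236), with DESeq2 adjusted p = 0.0464 and a range of 0.0464 to 0.530 over all alternatives, and PF against LO gave 0.78 (SE 0.300, edgeR adjusted p = 0.492).

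C5ar1, the main receptor for C5a, was counted 27 to 238 times per mouse. Its group means were 1.75 ± 0.706, 1.62 ± 0.531 and 2.42 ± 0.645 CPM in LO, SO and PF mice at 12 weeks and 3.89 ± 2.28, 2.51 ± 1.06 and 2.97 ± 1.39 CPM at 32 weeks (mean ± SD, n = 5). All groups overlapped, with the highest value, 7.29 CPM, in LO mouse 3 at 32 weeks. The changes over time were 1.15 (SE 0.386, edgeR adjusted p = 0.0886) in LO, 0.63 (SE 0.387, edgeR adjusted p = 0.392) in SO and 0.30 (SE 0.381, edgeR adjusted p = 0.829) in PF mice. C5ar2, the second C5a receptor, rose in SO mice with a log2 fold change of 1.07 (SE 0.244, edgeR adjusted p = 0.0100).

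Cd55, which protects host cells by dissociating the C3-cutting enzymes, had the narrowest relative range of the members, from 17.4 to 46.0 CPM over the 30 mice. It stood at 20.9, 22.5, 17.4, 17.5 and 21.3 CPM in LO, 18.4, 24.7, 28.6, 18.1 and 18.2 CPM in SO and 19.7, 28.3, 33.6, 20.2 and 25.3 CPM in PF mice at 12 weeks. The corresponding values at 32 weeks were 27.7, 26.1, 34.7, 23.02 and 32.2 CPM in LO, 20.1, 25.6, 30.04, 25.6 and 22.5 CPM in SO and 29.8, 46.01, 24.4, 23.6 and 29.5 CPM in PF mice. LO mice at 32 weeks lay above all LO mice at 12 weeks, while the SO and PF groups overlapped between ages and PF mouse 2 at 32 weeks stood alone at the top. The changes over time were 0.53 (SE 0.175, edgeR adjusted p = 0.0841) in LO, 0.20 (SE 0.175, edgeR adjusted p = 0.573) in SO and 0.27 (SE 0.174, edgeR adjusted p = 0.618) in PF mice. Cd55 was the only member whose PF mean was the highest of the 3 diets at 32 weeks, with PF against SO at 0.33 (SE 0.174, edgeR adjusted p = 0.505).

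Cfb, the protease of the alternative branch, was counted 0 to 19 times per mouse. SO mice had 1, 0, 4, 1 and 3 counts at 12 weeks and 4, 7, 19, 8 and 3 counts at 32 weeks. LO mice had 3, 7, 6, 4 and 13 and 8, 12, 15, 3 and 7 counts, and PF mice 7, 10, 4, 5 and 1 and 7, 12, 8, 6 and 4 counts, at 12 and 32 weeks. No group was free of counts and the ages overlapped in all 3 diets. Cfb passed the filter on low counts only in the fit of all 30 mice, where its change in SO mice was 2.03 (SE 0.633, edgeR adjusted p = 0.0513). It was thus not tested between diets within a time point. In the alternatives that did test it there the adjusted p ran from 0.599 to 1.0 (edgeR or DESeq2), so that no difference was detectable with so few counts. Cfd (factor D), which cuts factor B, ran from 0.959 to 263 CPM over the 30 mice, and its mean was 150.0 ± 106 CPM in PF and 24.7 ± 30.9 CPM in SO mice at 32 weeks (mean ± SD, n = 5). The adipocyte markers, summed over 5 of 5 genes, ran from 47.9 to 537.9 CPM in those PF mice and from 27.6 to 218 CPM in those SO mice, and their part in the Cfd values was not tested.

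Between diets at 12 weeks, PF mice had the highest mean of each of the 8 tested members, without any member passing the edgeR test. SO mice had the lowest mean of all of these but C2 and Cd55, which were lowest in LO mice. Cfb, not tested there, had its highest mean in LO mice, 0.20 CPM against 0.15 CPM in PF mice. All 8 tested members had a positive log2 fold change for PF against SO, from 0.24 for Cd55 to 1.35 for C3, with a median of 0.54 against −0.015 over all 15873 genes tested. edgeR called 0 of 8 (background 0% of genes), and 4 of 8 had an unadjusted p under 0.05 and a higher value (C3, C4b, C1ra and C3ar1), against 6.14% of all genes. DESeq2 called 2 of 9 (C4b and C3ar1), against 1.27% of all genes called higher. PF against LO also gave 8 of 8 positive values with a median of 0.42, 0 calls (background 0%) and 3 at an unadjusted p under 0.05 (C2, C3ar1 and Cd55), against 4.31% of all genes, while DESeq2 called 0. LO against SO gave 6 of 8 positive values with a median of 0.18, 0 calls (background 0%), 0 at an unadjusted p under 0.05 and 0 calls in DESeq2. The PF comparisons share the PF mice, so they are not independent. Without the 3 mice of this age with C1rb above 1 CPM, edgeR called 0 members in each of these comparisons.

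Markers of macrophages, which carry both receptors, were read in the same comparison. The 7 macrophage markers, 7 of 7 detected, summed to 202 to 344 CPM in PF, 136 to 208 CPM in SO and 161 to 297 CPM in LO mice at 12 weeks. For PF against SO, 6 of 7 had an unadjusted p under 0.05 and a higher value, with a median log2 fold change of 0.99, and Mertk had −0.12. The 7 fibroblast markers, 7 of 7 detected, summed to 973 to 1451 CPM in PF and 730.3 to 958 CPM in SO mice, with a median of 0.42. The 3 plasma cell markers (Jchain, Mzb1 and Igkc, 3 of 3 detected) summed to 54.2 to 2287 CPM in PF and 107 to 172 CPM in SO mice. The 4 T cell markers summed to 2.51 to 7.28 CPM in PF and 1.66 to 1.94 CPM in SO mice (median log2 fold change 1.43, 3 of 4 at an unadjusted p under 0.05), and the 3 B cell markers to 1.32 to 26.6 and 0.949 to 3.37 CPM (median 2.31, 3 of 3). An unadjusted p under 0.05 and a higher value were also found in 3 of 4 endothelial, 1 of 1 tested neutrophil and 0 of 4 tested mast cell markers. The part of these cells in the values of the members was not tested.

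At 32 weeks the order of the diets was another one. LO mice had the highest mean of 8 of the 9 members, and PF the highest of Cd55. LO against SO gave 8 of 8 positive values with a median of 0.41, and PF against LO gave 1 of 8 positive values with a median of −0.37, from −1.01 for C3 and −0.98 for C4b to 0.11 for Cd55. For PF against SO the median was −0.011, with 4 of 8 positive. In each of the 3 comparisons edgeR called 0 of 8 members (background 0%), 0 had an unadjusted p under 0.05, and DESeq2 called 0. The spread within groups was large at this age, and for C3 the LO mice alone ran from 59.4 to 772 CPM.

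**Figure D3:**
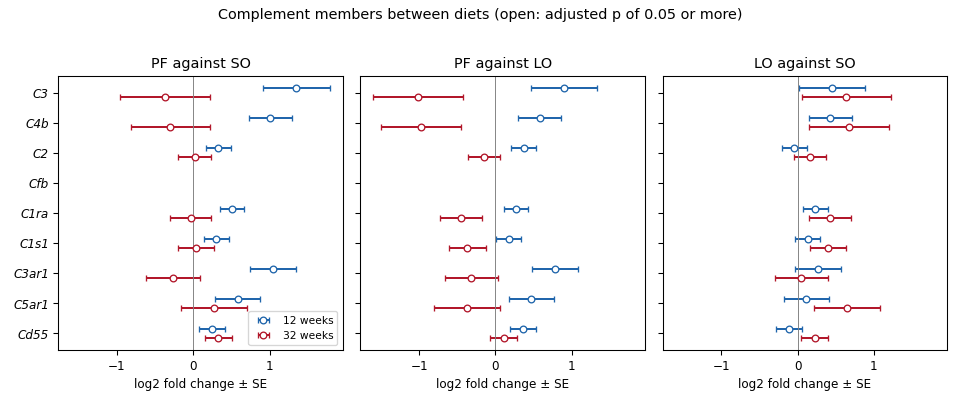
Log2 fold change ± SE of each member between diets, with 12 weeks in blue and 32 weeks in red and open points for an adjusted p of 0.05 or more, Cfb being left out by the filter on low counts. For PF against SO at 12 weeks all 8 points lie right of 0, up to 1.35 for C3, and for PF against LO at 32 weeks 7 of 8 lie left of it.

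From 12 to 32 weeks some members rose in LO and in SO mice and no change passed the test in PF mice, and the difference between diets was tested separately as an interaction. Age rose with the weeks on diet, and whether both time points were sequenced together is not stated in the sources used here. Time on diet, age and sequencing run can therefore not be told apart in these changes. In LO mice 9 of 9 had a positive log2 fold change, with a median of 0.76 against −0.012 over all 16605 genes tested. edgeR called 3 of 9 higher, C4b, C2 and C3ar1, against 1.74% of all genes, and 8 of 9 had an unadjusted p under 0.05 and a higher value, against 11.4%. DESeq2 called all 8 members to which it gave an adjusted p, Cfb having none, against 4.34% of genes called higher. In SO mice 9 of 9 were positive with a median of 0.63, 1 was called (C3ar1, against 5.25% of all genes), and 6 had an unadjusted p under 0.05 and a higher value (C3, C4b, C2, Cfb, C1ra and C3ar1, against 12.6%). DESeq2 called 4 of 9 in SO mice (C3, C4b, Cfb and C3ar1), against 6.09% of all genes. In PF mice 8 of 9 were positive with a median of 0.20, edgeR called 0 (background 0.0301%), 0 had an unadjusted p under 0.05, and DESeq2 called 0. Without the 6 mice with C1rb above 1 CPM the calls were 0 in LO, 2 in SO (Cfb and C3ar1) and 0 in PF mice, and the medians were 0.64, 0.55 and −0.015. In LO mice the count was also 0 without mouse 2 or 3 at 12 weeks or mouse 3 or 5 at 32 weeks, 1 without mouse 5 at 12 weeks, and 8 without mouse 4 at 32 weeks. In SO mice the count ran from 1 to 5 with 1 mouse left out, the 5 without mouse 1 at 32 weeks.

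**Figure D4:**
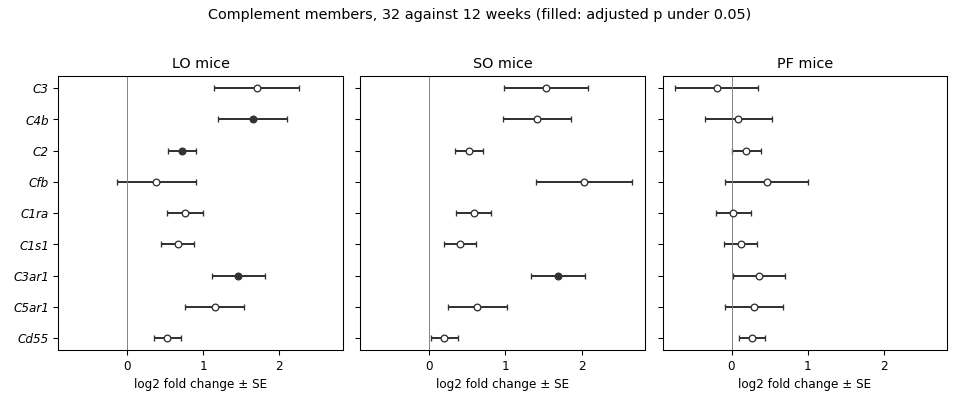
Log2 fold change ± SE of each member at 32 against 12 weeks in LO, SO and PF mice, with filled points for an adjusted p under 0.05. C4b, C2 and C3ar1 are filled in LO mice, C3ar1 is filled in SO mice, and PF mice have no filled point.

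The cell type markers were read over time as well. The macrophage sum ran from 207 to 712 CPM in LO, 183 to 429 CPM in SO and 245 to 483 CPM in PF mice at 32 weeks. In SO mice 4 of 7 rose in edgeR (Adgre1, Cd68, Fcgr1 and Lyz2) and the median was 1.22, and in LO mice 6 of 7 had an unadjusted p under 0.05 with a median of 0.96 and 0 calls. In PF mice the median was 0.054. The luminal markers summed to 108063 to 200595 CPM in LO and 145465 to 172532 CPM in SO mice at 32 weeks, below the 204810.0 to 327045 and 226828 to 321804 CPM of the same diets at 12 weeks. In PF mice the luminal sum was 180212 to 336745 CPM at 12 weeks and 126054 to 299203 CPM at 32 weeks. Sbp made up most of these sums, with means of 193600 and 110200 CPM in LO mice at 12 and 32 weeks. Over the 10 luminal genes the median log2 fold change was only −0.039 in LO, −0.10 in SO and −0.0096 in PF mice. edgeR called 1 of 10 lower in LO mice, 1 in SO mice and 0 in PF mice. The fibroblast sum overlapped between ages in every diet, with 0 calls. The median log2 fold change of its 7 genes was 0.47 in LO, 0.20 in SO and −0.14 in PF mice. A higher value with an unadjusted p under 0.05 was found in 3 of 7 in LO, 1 in SO and 0 in PF mice. All 3 plasma cell markers rose in LO and in SO mice, with medians of 3.81 and 3.01, and the median in PF mice was 0.89 with 0 calls. In SO mice all 4 T cell and all 3 B cell markers rose too (medians of 2.27 and 3.32), with 0 calls in LO mice (0.68 and 1.43) and 0 in PF mice (0.36 and −0.047). edgeR called 2 of 3 basal markers higher in LO and 1 in SO mice (background 1.74% and 5.25%). Of 2 neutrophil markers tested it called 1 higher in SO mice. The other lists tested had 0 calls. In LO, SO and PF mice, 2, 1 and 3 of 4 mast cell markers had an unadjusted p under 0.05 and a higher value. The same held for 2, 1 and 0 of 2 neutrophil and 2, 2 and 0 of 4 endothelial markers. The part of these cell types in the members' values was not tested.

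Whether the PF difference changed with time was tested directly as an interaction. For PF against SO, 8 of 9 members had a lower difference at 32 than at 12 weeks, with a median of −0.56. edgeR called 0 (background 0%), and 3 had an unadjusted p under 0.05 and a lower value (C3, C4b and C3ar1), against 6.65% of all genes. The values were −1.73 (SE 0.770, edgeR adjusted p = 0.456) for C3, −1.32 (SE 0.623, edgeR adjusted p = 0.507) for C4b and −1.33 (SE 0.486, edgeR adjusted p = 0.337) for C3ar1. For PF against LO, 8 of 9 were lower with a median of −0.73, 0 were called (background 0%), and 4 had an unadjusted p under 0.05 and a lower value (C3, C4b, C1ra and C3ar1), against 4.19% of all genes. The values were −1.90 (SE 0.770, edgeR adjusted p = 0.567) for C3, −1.56 (SE 0.623, edgeR adjusted p = 0.567) for C4b, −0.73 (SE 0.330, edgeR adjusted p = 0.618) for C1ra and −1.10 (SE 0.484, edgeR adjusted p = 0.604) for C3ar1. For LO against SO, 0 were called (background 0%) and 0 had an unadjusted p under 0.05. DESeq2 called 0 members in each of these 3 tests. A diet effect that depends on time therefore did not pass the adjusted threshold for any member.

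The other complement genes are given by their roles. For PF against SO at 12 weeks, 27 of 32 tested were positive with a median of 0.34, 0 passed edgeR's adjusted threshold, and 8 had an unadjusted p under 0.05 and a higher value, against 6.14% of all genes. They were the 3 chains of C1q, the recognition subunit, and 5 receptors. C1qa, C1qb and C1qc had log2 fold changes of 0.82, 0.93 and 0.89, and Itgb2, Itgax and Itgam, the chains of complement receptors 3 and 4, had 1.22, 0.92 and 0.83. C1qb stood at 39.4 ± 14.9 CPM in PF and 20.8 ± 1.56 CPM in SO mice (mean ± SD, n = 5). Over time, 8 of 36 rose in SO mice (Itgax, C5ar2, Itgb2, Masp1, Csmd1, C1qb, Cfi and Clu), 3 of 36 in LO mice (C7, Vtn and Csmd1) and 0 of 36 in PF mice, against 5.25%, 1.74% and 0.0301% of all genes. An unadjusted p under 0.05 and a higher value were found in 18 genes in SO, 20 in LO and 2 in PF mice, against 12.6%, 11.4% and 4.98% of all genes. Itgax rose in SO mice by 1.49 (SE 0.263, edgeR adjusted p = 0.00266) and C1qb by 1.06 (SE 0.302, edgeR adjusted p = 0.0337). C7, which joins C5b and C6 on the membrane, stood at 24.1 ± 9.66 CPM at 12 weeks and 79.3 ± 37.9 CPM at 32 weeks in LO mice (mean ± SD, n = 5) and rose by 1.72 (SE 0.411, edgeR adjusted p = 0.0231). Cfp (properdin), which stabilizes the alternative enzyme, had 0.63 (SE 0.266, edgeR adjusted p = 0.174) in LO mice, and C4a had −0.041 (SE 0.182, edgeR adjusted p = 0.930). Between diets at 32 weeks edgeR called 0 of 34 in each comparison (background 0%). For PF against SO, 15 of 34 were positive with a median of −0.088. An unadjusted p under 0.05 was found in 2 higher and 2 lower, against 1748 of all 16218 genes. For PF against LO 10 were positive, with 0 higher and 2 lower at that p (1394 of all genes). For LO against SO 21 were positive, with 1 higher and 1 lower (565 of all genes). Masp1, a protease of the lectin branch, had −0.92 (SE 0.248, edgeR adjusted p = 0.304) for PF against SO.

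Within diet and age, mice with more of one classical component had more of the others. After centring log2 CPM on the mean of each of the 6 groups, Pearson's r over the 30 mice was 0.925 between C3 and C1ra, 0.916 between C3 and C4b, 0.922 between C4b and C1ra and 0.906 between C1ra and C1s1. With C3, C4b, C1ra and C1s1, C2 had r of 0.782 to 0.818 and the receptor C5ar1 0.774 to 0.857, so the pattern was not limited to classical components. Cd55 and C3ar1 followed C3 less closely, with r of 0.498 and 0.622, and Cfb, with few counts, had r between 0.279 and 0.622 with the other members. These are descriptions, and the values of a mouse share one library and its depth. The same mice carried the pattern, since LO mouse 3 at 32 weeks was the highest of its group in 9 of 9 members and LO mouse 4 the lowest in 9 of 9, PF mouse 5 was the lowest at 12 weeks in 8 of 9, and PF mouse 2 and SO mouse 3 were the highest at 32 weeks in 8 of 9.

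**Figure D5:**
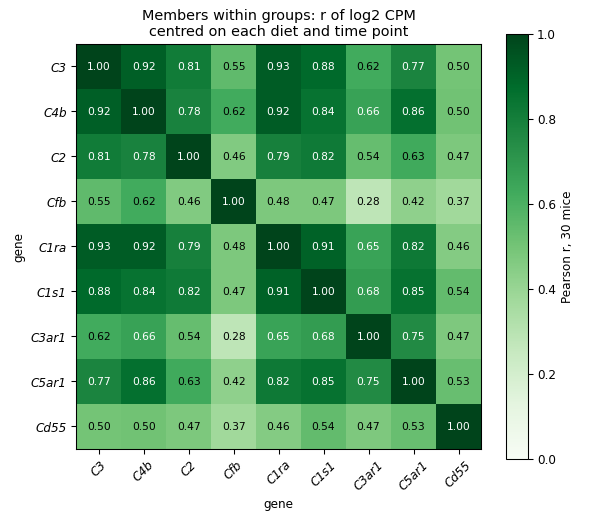
Pearson's r between members over 30 mice, from log2 CPM centred on the mean of each diet and time point, with darker green for a higher r. C3, C4b, C1ra and C1s1 form the darkest block, with values up to 0.925, and Cfb and Cd55 are the palest.

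The genes most like each member were sought on the same centred values among 16428 genes. The 3 closest to C3 were Xpnpep2, C1ra and C7 (r of 0.935, 0.925 and 0.923), and those closest to C4b were C1ra, Serping1 and Slco2b1 (0.922, 0.919 and 0.919). C1ra was closest to Serping1 (0.957), which encodes the inhibitor of C1r and C1s, and then to C3 and C4b. C1s1 was closest to Ptafr, Dcn and Rnase4 (0.941, 0.938 and 0.937), Dcn being decorin of the fibroblast marker list, and C2 to Clec4a1, Igsf10 and C1s1 (0.851, 0.825 and 0.818). C3ar1 was closest to the chemokines Ccl9 and Ccl6 and the scavenger receptor Msr1 (0.907, 0.898 and 0.896), and C5ar1 to the Fc receptor Fcgr3, the macrophage marker Csf1r and Nsg1 (0.903, 0.897 and 0.894). Cd55 was closest to Gm15675, Kdelc2 and Grk5 (0.829, 0.793 and 0.749), and Cfb to Trpc6, Ighv1-53 and Pcdhb9 (0.726, 0.702 and 0.689).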

How the data were processed

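VP RNA of 30 mice was sequenced as paired reads of stranded mRNA libraries. The authors deposited raw counts of read pairs per gene, 1 table per mouse, and the submitters' processing notes name TopHat2, HTSeq, DESeq2 and the build GRCm38.p6. Versions, the annotation release and the strand setting are not given in the sources used here. Lines of pairs not assigned to a gene (no feature 6.67% to 12.2%, ambiguous 0.831% to 1.18%, not unique 16% to 20.3%) were left out.

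From the counts, genes were filtered with filterByExpr by group, scaled by TMM and compared by edgeR 4.0.16 in R 4.3.3 with its quasi-likelihood F test, two-sided, with Benjamini-Hochberg adjustment over all genes tested and a threshold of 0.05. The 3 diets of a time point shared one fit of 15 mice, and changes over time and interactions shared one fit of 30 mice. The SE was the size of the log2 fold change divided by the square root of F. CPM used each mouse's total count and TMM factor, and exon lengths and positions came from GENCODE M21. Likeness used log2 CPM with a prior count of 2. The fits were tested on simulated data.

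Groups and replicate numbers came from the labels. The alternatives were the Wald test of DESeq2 1.42.0, other scaling, filters and thresholds, a robust fit, the replicate block, other sets of mice, and each mouse left out in turn. All 9 members were named. The other genes named were fixed partners and near copies, up to 4 with the largest change per comparison, and the 3 most alike each member. The genes listed by count and the calls over time were named beyond that rule after their values were seen. The members and lists were chosen with earlier results of these data known. A few genes are not reported here.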

Additional observations from a re-analysis of the deposited data

Results flagged for a closer look

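Cd55 in PF mice at 32 weeks was picked out because 1 mouse lay far from the others. PF mouse 2 had 46.0 CPM, and the other 4 mice lay between 23.6 and 29.8 CPM, so the gap to the nearest mouse was 0.722 of the whole range. Among 54 groups of 5 mice examined, 9 members in 6 groups, this was the only 1. Chance gives about 1 in 20, so 1 such group among 54 is not more than chance would give. PF mouse 2 was also the highest of its group in 8 of 9 members, and it was among the 6 mice with C1rb above 1 CPM. Without it, PF against LO at 32 weeks for Cd55 went from 0.11 to −0.080 on the log2 scale.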

How the results depend on the processing

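The number of members called over time depended on the processing, and the cause was not tested. In LO mice the 3 members called became 8 with DESeq2, 8 without TMM factors, 8 at an adjusted p under 0.1, 1 with no filter, 0 in a fit of only the 2 groups compared, 0 without the 6 mice with C1rb above 1 CPM, and 0 to 8 with 1 mouse left out. In SO mice the 1 member called became 4 with DESeq2, 6 without TMM factors, 5 at an adjusted p under 0.1, 2 without the 6 mice, and 1 to 5 with 1 mouse left out. For PF against SO at 12 weeks the count went from 0 to 2 with DESeq2 and 0 to 1 with 1 mouse left out. In the other 9 comparisons the count was 0 under every alternative run.

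Of 1290 member values recomputed with 1 mouse left out, 47 turned in direction, and of 1104 under the other alternatives, 22 did. No member value for PF against SO and PF against LO at 12 weeks or over time in SO mice turned. Among the values given, without TMM factors Cd55 for PF against LO at 32 weeks went to −0.051. Without the 6 mice, changes over time turned for Cfb in LO mice (−0.071) and in PF mice for C4b (−0.14), Cfb (−0.25), C1ra (−0.058) and C1s1 (−0.015). With 1 mouse left out, Cd55 for PF against LO at 32 weeks ran from −0.080 to 0.19, and over time in PF mice C3 ran from −0.38 to 0.24, C4b from −0.086 to 0.28, C1ra from −0.050 to 0.12 and C1s1 from −0.0081 to 0.20.

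Without TMM factors the median of all genes went to 0.16 over time in LO and 0.19 in SO mice, −0.15 and −0.17 for PF against SO and PF against LO at 32 weeks, and −0.17 and −0.14 for the corresponding interactions. The genes called over time went from 289 higher and 159 lower to 1323 and 52 in LO mice, and from 871 and 202 to 2770 and 32 in SO mice, so the members' rises are read relative to these medians. Against them, the members' medians without TMM factors were 0.94 in LO and 0.83 in SO mice.

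Deviations from the group mean were compared between mice of different diets. Pairs of the same number had a mean r of 0.0559 at 12 weeks and 0.132 at 32 weeks, with 5 and 10 of 15 pairs over 0.1. Pairs of different numbers had a mean r of −0.0137 and −0.0291, with 18 of 60 pairs over 0.1 at each age. At 12 and 32 weeks 3 and 6 of 15 mice were most alike a mouse of their own number. The main fits did not use the replicate number, and whether it marks a pairing was not tested. With the replicate block 2 members were called in SO mice (C3ar1 and Cfb) and 3 in LO mice, where Cd55 was called (edgeR adjusted p = 0.0457) and C4b was not (0.0529).

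The alternatives without TMM factors, without the 6 mice and with DESeq2 and the block were chosen after seeing the data. Low counts limited Cfb, with at most 19 per mouse.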

Other observations

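C1rb and C1s2, the near copies of C1ra and C1s1, were read in few mice. C1rb stood at 43.0 CPM in LO mouse 4 at 12 weeks, 6.86 CPM in LO mouse 3 at 32 weeks, 6.18 CPM in PF mouse 2 at 32 weeks, 3.24 CPM in PF mouse 5 at 12 weeks, 2.995 CPM in SO mouse 3 at 12 weeks and 1.95 CPM in PF mouse 3 at 32 weeks, and LO mouse 1 at 12 weeks had 0.921 CPM. The other 23 mice had 0 to 0.201 CPM. C1s2 stood at 19.2, 6.86, 5.03, 2.63, 1.94, 1.92 and 0.895 CPM in the same 7 mice, in that order, and at 0.0259 to 0.307 CPM in the others. Tgm4, a prostate transglutaminase, stood at 1293, 288, 181, 144, 87.0, 68.6 and 39.0 CPM in those mice and at 2.88 to 15.99 CPM in the others. C1ra, by contrast, was 24.1 CPM in LO mouse 4 at 12 weeks, within the 19.5 to 28.0 CPM of its group. The genes were chosen after their values were seen, and no cause was tested.

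Some complement receptors of single cell lineages were counted in quantity in only a few mice. Cr2, the receptor for C3d on B cells, had 140 counts in PF mouse 2 at 12 weeks and 165 in SO mouse 4 at 32 weeks, against 0 to 8 in SO mice at 12 weeks. Its change over time in SO mice was 4.27 (SE 1.37, edgeR adjusted p = 0.0574). Vsig4, a C3b receptor of resident macrophages, had 25, 13, 58, 4 and 50 counts in LO mice at 32 weeks and 5, 2, 4, 6 and 11 at 12 weeks, a change of 2.43 (SE 0.741, edgeR adjusted p = 0.0646).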
